A study of Arabidopsis thaliana with 18 samples.

Results

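The 10 histone acetyltransferase genes of Arabidopsis described here were taken by locus from 37899 genes on the nuclear chromosomes, of which 27444 are protein-coding. They are 3 genes of the GNAT family (HAG1, AT3G54610; HAG2, AT5G56740; HAG3, AT5G50320, which RefSeq calls ELO3), 5 of the CBP family (HAC1, AT1G79000; HAC2, AT1G67220; HAC4, AT1G55970; HAC5, AT3G12980; HAC12, AT1G16710) and 2 of the TAF1 family (HAF1, AT1G32750, RefSeq symbol HAF01; HAF2, AT3G19040). Acetylated histone H3 was mapped by chromatin immunoprecipitation and sequencing at lysine 9 (H3K9ac) and lysine 14 (H3K14ac). The material was whole 10-day-old seedlings of the hda9-1 mutant, the pwr-2 mutant and the Col wild type (WT), kept cold for 2 days and then at 23 °C in long days (16 h light, 8 h dark). H3K9ac had 2 libraries per genotype and H3K14ac had 1, so no H3K14ac value has a replicate check. Both mutants are labelled as Col, no further allele or treatment is given for any group, and titles reading "hdac" were taken as hda9-1 from the genotype label.

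Histone acetyltransferases transfer acetyl groups to lysines of histone tails, and histone deacetylases such as HDA9 remove them. PWR (POWERDRESS) is a SANT-domain protein that acts with HDA9. In plants, GNAT enzymes include the catalytic subunits of the SAGA and Elongator complexes, CBP-family enzymes resemble the animal coactivators CBP and p300, and TAF1-family proteins are subunits of TFIID, the general transcription factor that binds core promoters. H3K9ac and H3K14ac lie mostly near the starts of genes in use. The question put to the peak lists was where the acetyltransferase genes themselves carry these marks, and whether the marks differ in plants that lack a deacetylase or its partner.

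Marking was judged on the outermost 500 bp on each side of a gene: it counted as marked in a library if peaks took up 50% or more of either stretch. Gained means marked in both libraries of a mutant and in none of WT, and lost means the opposite. The annotation used gives no strand, so ends are named by coordinate (lower or higher) and not as start or end of transcription. The H3K9ac replicates are called biological, with no word on separate plantings, so p-values measure only the spread between these libraries. In whole seedlings, fewer cells with a mark and less of the mark per cell cannot be told apart.

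The H3K9ac libraries differed in reads in peaks in step with genotype. Depth, deeper and shallower refer here to reads in peaks, since total or mapped reads per library were not used. Reads in peaks also vary with enrichment and with how much of the genome was called. A difference in enrichment between genotypes would therefore count as depth, and the 2 were not separated. Reads in peaks were 12265470 and 18171153 in hda9-1, 3757931 and 8873855 in pwr-2, and 1948253 and 2223676 in WT. The share of protein-coding genes marked was 57.4% and 60.2% in hda9-1, 51.7% and 56.8% in pwr-2, and 49.5% and 53% in WT. The H3K14ac libraries held 875104 reads in peaks in hda9-1, 1090139 in pwr-2 and 667780 in WT. In peaks of identical position the hda9-1 replicates differed by about the sampling noise (3475 peaks, SD of the log2 ratio 0.081 against 0.083 for Poisson counts), though a chi-square over these peaks found a slight excess (1.069 per degree of freedom). The corresponding SDs were 0.178 against 0.133 in pwr-2 and 0.226 against 0.202 in WT. The hda9-1 libraries were kept as 2, and leaving out either did not change which acetyltransferase genes were gained or lost. Of 4 genes of green seedling tissue, RBCS1A, LHCB2.1 and GAPA were marked with H3K9ac in all 6 libraries. CAB1 was marked in 3 and counted as lost in pwr-2. H3K14ac touched none of these genes except GAPA, in pwr-2 only. No peak of either mark touched the 4 seed storage genes SESA1, CRC, CRA1 and OLEO1, so H3K14ac barely separated the seedling genes from them.

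Of the 10 acetyltransferase genes, 4 (HAG1, HAC1, HAC5 and HAC12) were marked with H3K9ac in all 6 libraries, close to the 39.8% of protein-coding genes. HAC2 and HAC4 were marked in none, against 31.8%. The other 4 genes were marked in some libraries. HAG2, HAG3 and HAC12 had each of their ends marked in at least 1 H3K9ac library, as did 37.0% of protein-coding genes. The number marked was 8 and 8 of 10 in hda9-1, 6 and 8 in pwr-2, and 4 and 7 in WT. The first WT library, the shallowest, had the fewest genes marked. The second pwr-2 library had as many as each of the deeper hda9-1 libraries, and the first pwr-2 library had fewer than the shallower second WT library. The part of depth in these numbers was not tested. In H3K14ac, 9 genes were marked in hda9-1, 7 in pwr-2 and 7 in WT, against 47.3%, 48.5% and 40.3% of protein-coding genes in the same order. The 7 were marked in all 3 libraries, against 33.2% of protein-coding genes. HAC4 was marked in none of the 3, against 42.8%.

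**Figure D1:**
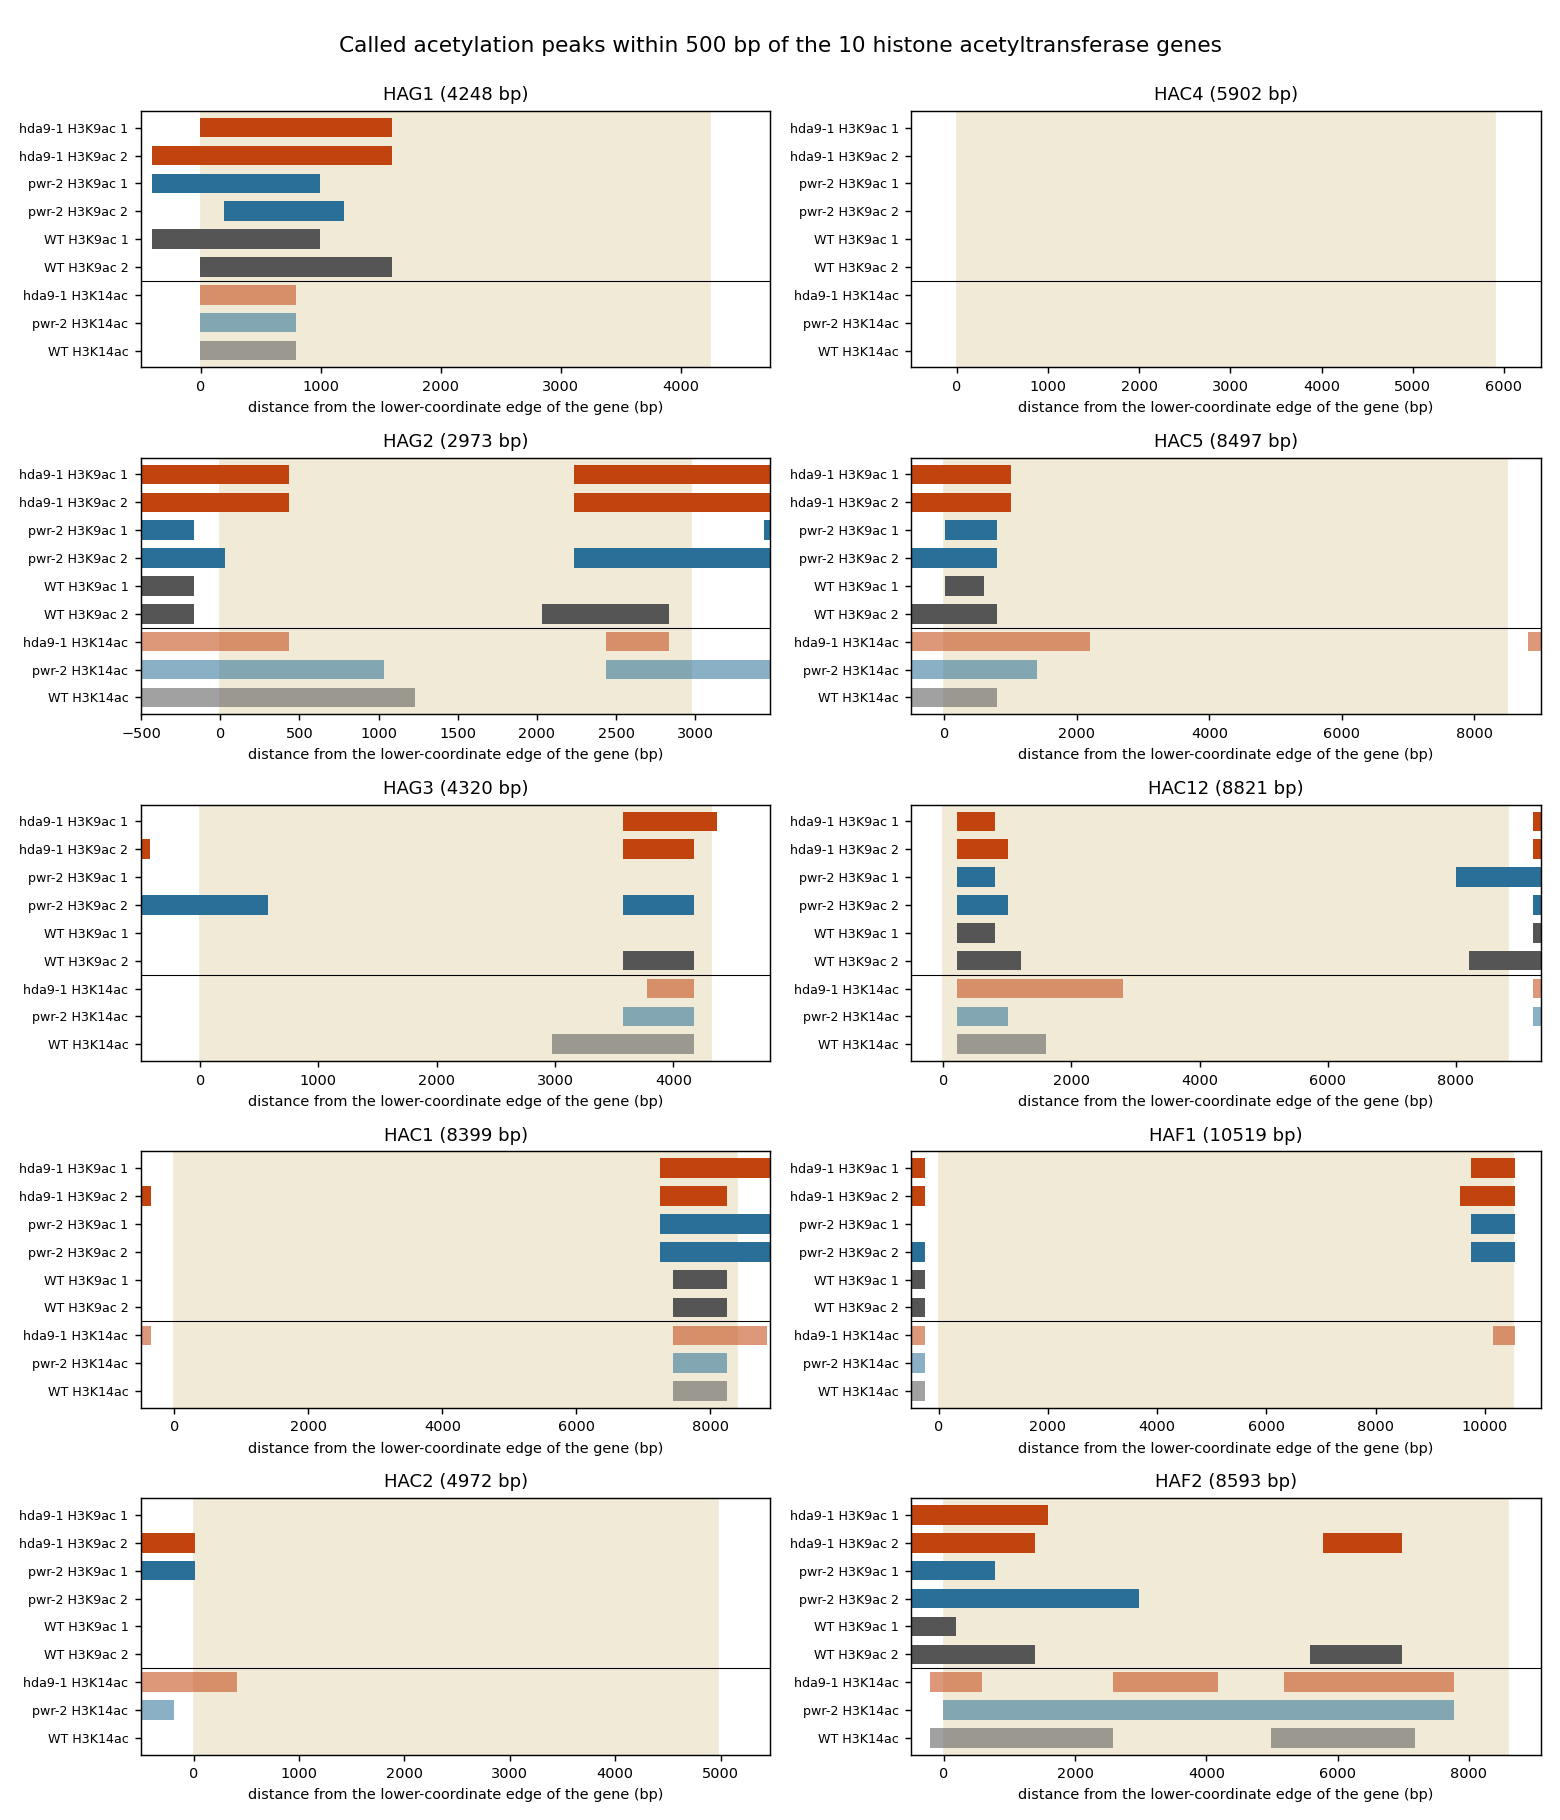
Called peaks within 500 bp of each acetyltransferase gene. The x axis is the distance from the lower-coordinate edge of the gene in bp, the shaded band is the gene, and each row is a library (hda9-1, pwr-2 and WT from top to bottom, H3K9ac above the line and H3K14ac, in paler bars, below it). Most peaks sat at the ends of the genes, with inner peaks on HAF2, and HAC4 had none. In H3K9ac the peak at the higher-coordinate end of HAF1 was absent in both WT libraries, and H3K14ac ran far into HAF2.

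As a share of gene length, H3K9ac peaks in WT covered 30.4 ± 10% of HAG1, 17.2 ± 21.4% of HAF2, 13.4 ± 19% of HAG2, 12.6 ± 8.1% of HAC12, 9.5% of HAC1 in both libraries, 8.2 ± 1.6% of HAC5 and 7 ± 9.8% of HAG3 (mean and SD, n = 2). HAF1, HAC2 and HAC4 stood at 0. Each gap between neighbours in that order was smaller than the larger SD of the pair, so no neighbours differed beyond their spread. These are long genes, with a median length of 7150.5 bp against 2078 bp over protein-coding genes, and their median covered length was 883.5 and 982.5 bp in hda9-1, 772.5 and 801 in pwr-2, and 90 and 800 in WT. The medians over all protein-coding genes were 718 and 800 bp in hda9-1, 528 and 707 in pwr-2, and 420.5 and 600 in WT. For H3K14ac the medians of the 10 genes were 814.5 bp in hda9-1, 797.5 bp in pwr-2 and 801 bp in WT, where those of protein-coding genes were 400, 467 and 0 bp in the same order.

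**Figure D2:**
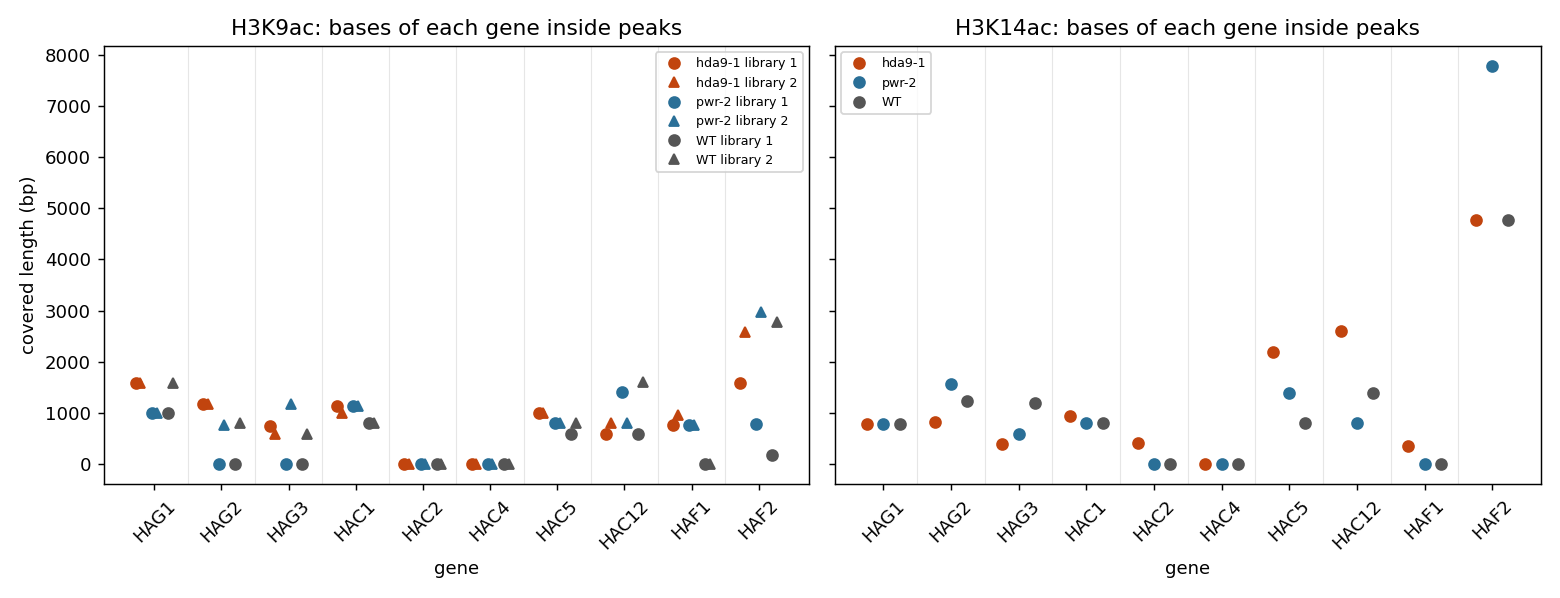
Bases of each gene inside called peaks (y axis, bp) for H3K9ac (left) and H3K14ac (right). Each point is a library, with hda9-1, pwr-2 and WT from left to right within a gene and the second H3K9ac library as a triangle. HAF1 had 765 to 965 bp of H3K9ac in the 4 mutant libraries and 0 in both WT libraries, and HAF2 had 4780 to 7780 bp of H3K14ac.

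HAG1 encodes GCN5, the catalytic acetyltransferase of SAGA-type complexes, whose main target on H3 is lysine 14. Its H3K9ac peak lay at the lower-coordinate end, and 1595 and 1595 bp of the gene were covered in hda9-1, 995 and 1000 in pwr-2, and 995 and 1595 bp in WT. Both mutants overlapped WT. The hda9-1 values lay above both pwr-2 values (exact permutation test, two-sided, p = 0.333, the smallest that 2 libraries against 2 can give). HAG1, HAG2 and HAC5 were the 3 genes covered over a longer stretch in both hda9-1 than in both pwr-2 libraries, a pattern found in 11.0% of protein-coding genes. None of the 10 genes was marked in both libraries of hda9-1 and neither of pwr-2, against 1.41%, and none the other way round, against 0.324%. In reads, the region over HAG1 (chr3:20213001-20215000, TAIR10) held 45.4 and 55.6 RPM (scaled to the reads in peaks) in hda9-1, 40.4 and 37.8 in pwr-2, and 59.5 and 72.9 in WT. All 4 mutant values lay below both WT values, a pattern whose share over all regions was not counted. RPM is relative to the reads in peaks, so a change common to all peaks would not show in it. The fitted log2 change was −0.74 in pwr-2 over WT (SE 0.21, edgeR adjusted p = 0.244) and −0.34 in hda9-1 over WT (SE 0.20, adjusted p = 0.543), so neither passed the adjusted threshold of 0.05. Per covered bp the changes were −0.26 in pwr-2 and −0.36 in hda9-1.

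The H3K14ac peak of HAG1 had the same position in all 3 libraries, chr3:20213401-20214200. It held 100 reads in hda9-1, 110 in pwr-2 and 80 in WT. Its read density was 142.8, 126.1 and 149.7 RPKM (scaled likewise) in hda9-1, pwr-2 and WT, and this lay at percentile 99.3, 99.2 and 99.1 among the H3K14ac peaks of the same library. The H3K9ac peaks over the same end were of low to middling density, at percentile 15.1 and 17.8 in hda9-1, 9.6 and 44.1 in pwr-2, and 40.3 and 56 in WT. The next densest H3K14ac peak overlapping an acetyltransferase gene, on HAG3 in hda9-1, stood at percentile 84.8.

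**Figure D3:**
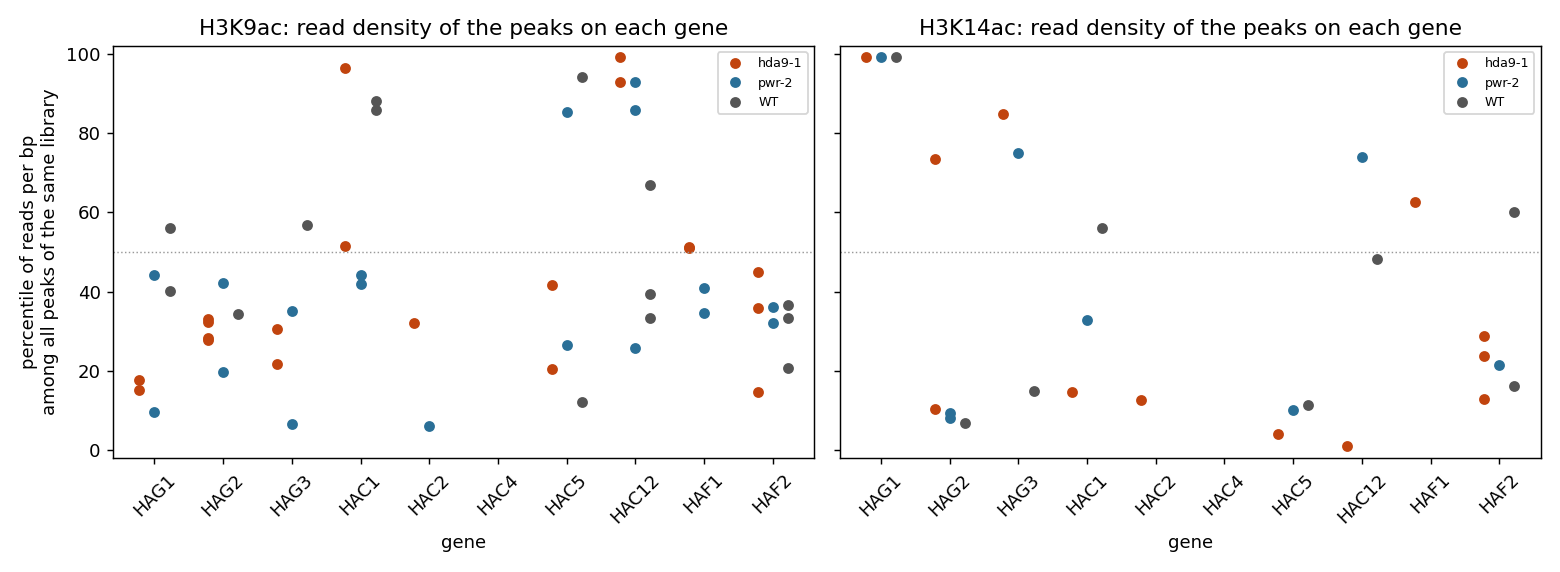
Read density of the peaks on each gene, as the percentile of reads per bp among all peaks of the same library (y axis, 0 to 100, dotted line at 50), for H3K9ac (left) and H3K14ac (right). Each point is a peak that overlaps the gene, with hda9-1, pwr-2 and WT from left to right. HAG1 stands at 99.1 to 99.3 in H3K14ac and at 9.6 to 56 in H3K9ac, and the hda9-1 and pwr-2 H3K9ac peaks at the lower-coordinate end of HAC12 lie between 85.9 and 99.1.

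HAG2 encodes a GNAT enzyme of the HAT1 type, which acetylates histone H4. H3K9ac covered 1173 and 1173 bp of it in hda9-1, 0 and 773 in pwr-2, and 0 and 800 bp in WT. The hda9-1 values lay above all others (1173 ± 0 bp in hda9-1 against 400 ± 566 bp in WT, SD, n = 2, exact permutation p = 0.333), and pwr-2 overlapped WT. Much of this cover came from peaks centred on its neighbours: in hda9-1 36.2% and 31% of the width of the lower peak lay in HAG2 and the rest toward AT5G56730, and the upper peak (19.4% and 16.8% in the gene) ran on over NDL1. The 800 bp of the second WT library came from a peak wholly inside the gene. In the shallower libraries the lower peak stopped short of the gene, at 600 bp wide in the first pwr-2 library and at 400 and 600 bp wide in WT. That lower region gave a log2 change of 0.61 in hda9-1 over WT on reads (SE 0.20, edgeR adjusted p = 0.337) and −0.53 per covered bp. The sign thus turned with the scale, and in pwr-2 over WT it turned as well (0.30 on reads, −0.27 per covered bp). H3K14ac covered 834 bp in hda9-1, 1573 bp in pwr-2 and 1234 bp in WT.

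HAG3 encodes ELP3, the catalytic subunit of Elongator. Its H3K9ac peak at the higher-coordinate end (chr5:20484201-20484800 in most lists) was present in both hda9-1 libraries, in 1 of 2 pwr-2 libraries and in 1 of 2 WT libraries. It covered 745 and 600 bp in hda9-1. Over the whole gene, pwr-2 had 0 and 1175 bp and WT had 0 and 600 bp, so all groups overlapped. The hda9-1 peak, scaled by reads in peaks to the depth of the first WT library, would hold 47.2 (first hda9-1 library) or 35.8 reads (second), fewer than any of the WT peaks of the same width, whose lowest counts were 59 and 52. The peak of the second WT library would hold 53.4, and 7 of 984 peaks of its width had no more. Scaled to the first pwr-2 library the hda9-1 peaks would hold 91.0 and 69.1 reads, where the lowest counts were 92 and 76. The peak of the second WT library would hold 103.1 reads there, and 404 of 1122 peaks of its width (36.0%) had no more. In their own libraries the hda9-1 peaks stood at percentile 21.8 and 30.7 of density. Peaks of these widths as weak as those of hda9-1 after scaling were not called in either library. A peak as dense as that of the second WT library was within the called range of the first pwr-2 library. H3K14ac was found at the same end in all 3 genotypes, over 400 bp in hda9-1, 600 bp in pwr-2 and 1200 bp in WT.

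Among the CBP-family genes, HAC1, a coactivator gene known for its part in flowering time, was marked at its higher-coordinate end throughout. H3K9ac covered 1148 and 1000 bp in hda9-1, 1148 and 1148 in pwr-2, and 800 and 800 in WT. Both mutants lay above WT with no overlap (exact permutation p = 0.333 for each). The peak began 200 bp sooner in all 4 mutant libraries than in WT, and 3 of the 4 ran on past the gene over AT1G79010, where the WT peaks (chr1:29723801-29724600) ended inside it. WT had separate peaks farther on: the merged region, which reaches over AT1G79010, held 2200 and 1600 bp of WT peaks with 209 and 205 reads. Of these, the peak on HAC1 made up 800 bp in each library, with 95 and 103 reads. Reads in the merged region did not pass the test: the log2 change was 0.04 in hda9-1 over WT (SE 0.18, edgeR adjusted p = 0.951) and 0.33 in pwr-2 over WT (SE 0.19, adjusted p = 0.446), and 33.8% of that region lay in HAC1. The H3K14ac peak had the WT H3K9ac position in pwr-2 and in WT, and in hda9-1 it was 1400 bp wide.

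HAC5, which acts in part redundantly with HAC1, was marked at its lower-coordinate end in all 9 libraries. H3K9ac covered 1002 and 1002 bp in hda9-1, 800 and 802 in pwr-2, and 600 and 802 in WT. The hda9-1 values lay above WT and above pwr-2 (exact permutation p = 0.333 for each), and pwr-2 touched the WT range. The log2 changes in reads were 0.06 in hda9-1 over WT (SE 0.34) and −0.32 in pwr-2 over WT (SE 0.34), with edgeR adjusted p of 0.962 and 0.695. H3K14ac covered 2202 bp of HAC5 in hda9-1, 1402 bp in pwr-2 and 802 bp in WT, in peaks of low density (percentile 4.1, 10.2 and 11.4 in hda9-1, pwr-2 and WT). There is no second library to say whether that order holds.

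HAC12, the close relative of HAC1, had a narrow H3K9ac peak inside its lower-coordinate end that began at chr1:5714001 in every list of both marks. It was 600 and 800 bp wide in hda9-1, 600 and 800 in pwr-2, and 600 and 1000 in WT. Its read density was 62.0 and 48.0 RPKM in hda9-1, 62.5 and 51.0 in pwr-2, and 50.5 and 39.1 in WT, or percentile 99.1 and 93 in hda9-1, 92.9 and 85.9 in pwr-2, and 66.9 and 33.3 in WT. The 99.1 was the highest percentile of any H3K9ac peak on these genes. In density hda9-1 overlapped WT, and both pwr-2 values lay above both WT values, the lower by little (51.0 against 50.5). The share of peaks that part in this way was not counted. On reads the log2 change of the region was 0.17 in hda9-1 over WT (SE 0.19, edgeR adjusted p = 0.756) and 0.20 in pwr-2 over WT (SE 0.20, adjusted p = 0.664). Per covered bp the values were 0.61 (adjusted p = 0.31) and 0.48 (adjusted p = 0.343), also short of the threshold. A peak reaching the other end of the gene from HCF173 entered HAC12 in 1 pwr-2 library and 1 WT library. H3K14ac began at the same base and covered 2600 bp in hda9-1, 800 bp in pwr-2 and 1400 bp in WT. The long hda9-1 peak was among the least dense of its library (percentile 1.1, against 74.1 in pwr-2 and 48.3 in WT).

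HAC2 and HAC4 were the CBP-family genes with no H3K9ac mark in any library. No peak of either mark touched HAC4 in any of the 9 lists, which was true of 23.7% of protein-coding genes. HAC2 was entered for 14 bp by an H3K9ac peak in the second hda9-1 and the first pwr-2 library, and by none in WT. These peaks lay next to the gene over the noncoding locus AT1G08913. In H3K14ac the hda9-1 peak there reached 414 bp into HAC2 with 40 reads (percentile 12.6 in density), which marked it. Cover of HAC2 was 0 bp in pwr-2 and 0 bp in WT. In pwr-2 a denser peak at the same place (chr1:25144801-25145400, 43 reads, percentile 58.6) ended just short of the gene.

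HAF1 was the 1 acetyltransferase gene gained in H3K9ac, and it was gained in both mutants. Of protein-coding genes, 4.21% were gained in hda9-1, 2.30% in pwr-2 and 1.83% in both. No acetyltransferase gene was lost, against 0.506% of protein-coding genes lost in hda9-1 and 0.674% in pwr-2. Under other settings HAF1 was gained in both mutants each time. Without the second WT library the gained genes numbered 4 in hda9-1 (HAG2, HAG3, HAF1 and HAF2) and 2 in pwr-2 (HAF1 and HAF2). With 75% of the window required, HAG2 joined HAF1 in hda9-1 and HAC1 joined it in pwr-2. HAF1 encodes a TAF1-type subunit of TFIID. Peaks covered 765 and 965 bp of it in hda9-1, 765 and 765 in pwr-2, and 0 and 0 bp in WT (865 ± 141 bp in hda9-1, 765 ± 0 bp in pwr-2 and 0 ± 0 bp in WT, SD, n = 2, exact permutation p = 0.333 for each mutant). The peak lay at chr1:11856001-11856800, with 363 reads in the first hda9-1 library, 110 in the first pwr-2 library and 262 in the second. The second hda9-1 library had it from chr1:11855801 with 631 reads. It also overlaps the noncoding locus AT1G06613, and with no strand the 2 transcripts' shares of the mark cannot be told apart.

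Relative to depth, the HAF1 peak was nearly the same in the 4 mutant libraries: 37.0 and 34.7 RPKM in hda9-1 and 36.6 and 36.9 in pwr-2. Scaled to the depth of the first WT library, its peaks of 800 bp would hold 57.0 to 57.7 reads, below the lowest of its 1552 peaks of that width, which had 59. Scaled to the second WT library they would hold 65.1 to 65.8 reads, and 12 of its 1548 peaks of that width (0.8%) had no more. The 1000 bp peak of the second hda9-1 library would hold 67.7 and 77.2 reads, where 1 of 1194 and 70 of 1358 WT peaks had no more. So scaled, a peak of this density lay near or below the weakest called peak of its width in the first WT library. In the second it lay among the weakest called peaks, where the lowest counts were 60 reads at 800 bp and 48 at 1000 bp. The second WT library did call some peaks this weak, and the part of depth in the gain was not tested. Within its own library, the HAF1 peak stood at density percentile 51.0 (first hda9-1), 51.2 (second hda9-1), 34.7 (first pwr-2) or 41.0 (second pwr-2). Median peak density differed between genotypes: 36.8 and 34.5 RPKM for hda9-1, 41.0 and 39.2 for pwr-2, 45.3 and 43.8 for WT. An hda9-1 peak of median density and the same width would scale to nearly the same reads. The low scaled counts are thus not particular to HAF1. Just outside the other end of HAF1, an H3K9ac peak over AT1G32740 was called in both WT libraries with 164 and 176 reads. It was also called in both hda9-1 libraries (621 and 927 reads) and in the second pwr-2 library (642 reads), but not in the first. In H3K14ac it was called in all 3 genotypes. H3K14ac at HAF1 was called in hda9-1 (chr1:11856401-11856800, 26 reads) and not in pwr-2 or WT.

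**Figure D4:**
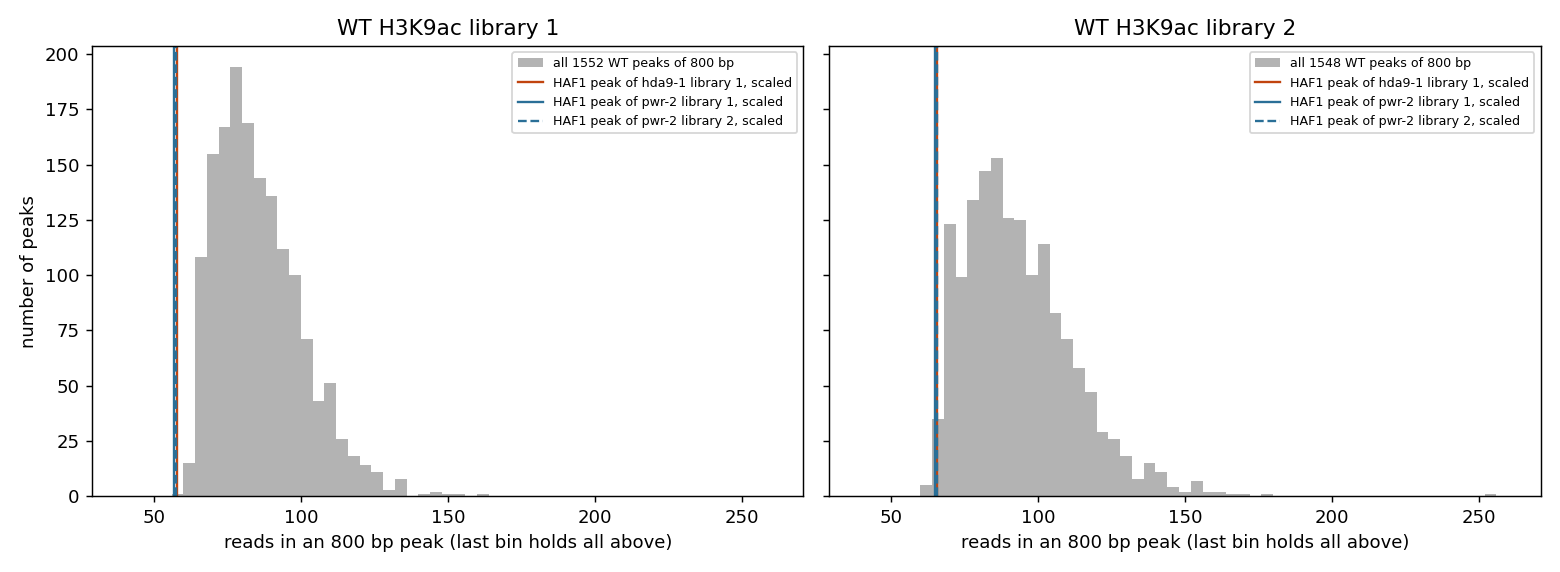
Reads in the 800 bp H3K9ac peaks of each WT library (grey histogram, x axis in reads, y axis in peaks), with lines at the reads the HAF1 peak of 3 mutant libraries would hold at that WT depth. The lines lie at 57.0 to 57.7 reads in the first WT library, below its lowest peak of 59, and at 65.1 to 65.8 in the second, where 12 peaks of 1548 had no more.

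The 3 protein-coding genes whose cover over the 9 lists was most like that of HAF1, by mean absolute difference in percent of gene length, were AT1G63490 (0.76 percentage points), ABCC2 (AT2G34660, a vacuolar ABC transporter, 0.83) and AT3G48060 (0.91). ABCC2 had 600 and 1000 bp in hda9-1, 800 and 600 in pwr-2 and 0 bp in both WT libraries. None of the 3 had H3K14ac.

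HAF2 encodes the other TAF1-type protein, which is known for its part in light-regulated gene expression. H3K9ac covered 1580 and 2580 bp in hda9-1, 780 and 2980 in pwr-2, and 180 and 2780 in WT. All 3 groups overlapped, and in each genotype the deeper library had the longer cover. The H3K9ac peaks came from a broad block that ran in from neighbouring genes, AT3G19030 among them, and an inner peak near chr3:6572801-6574000 was called in the second hda9-1 and the second WT library. HAG2, HAG3 and HAF2 were unmarked in the first WT library and marked in the second, a pattern found in 9.26% of protein-coding genes.

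In H3K14ac, HAF2 stood apart by length. Peaks covered 4780 bp in hda9-1, 7780 bp in pwr-2 and 4780 bp in WT, or 55.6%, 90.5% and 55.6% of the gene. In pwr-2 this was a single peak of 7800 bp with 400 reads (chr3:6567001-6574800), and no other protein-coding gene had as much H3K14ac cover. In hda9-1 and WT, 7 and 6 other protein-coding genes had at least as much. Of the 286 other protein-coding genes of at least 8000 bp, the median H3K14ac cover was 733 bp in hda9-1, 800 bp in pwr-2 and 600 bp in WT. The density of these peaks was ordinary or low, at percentile 13 to 28.9 in hda9-1, 21.4 in pwr-2, and 16.3 and 60.2 in WT. This feature of HAF2 was noticed in the values, and it was present in all 3 genotypes.

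Counted over all 10 genes, H3K9ac cover was longer in both hda9-1 libraries than in both WT libraries at 4 (HAG2, HAC1, HAC5 and HAF1), against 18.0% of protein-coding genes, and shorter at 0, against 3.24%. In pwr-2 it was longer than WT at 2 (HAC1 and HAF1), against 9.76%, and shorter at 0, against 5.32%. In both comparisons the WT libraries were the shallower ones, and the part of depth in these counts was not tested. In H3K14ac, HAC2 and HAF1 were marked in hda9-1 and not in WT, against 12.4% of protein-coding genes, and none was marked in pwr-2 and not in WT, against 13.0%. None was marked in WT and not in a mutant, against 5.37% for hda9-1 and 4.80% for pwr-2.

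The test on reads covered 8332 H3K9ac regions with a peak in all 6 libraries, and edgeR called 0 of them in hda9-1 over WT, 0 in pwr-2 over WT and 0 in hda9-1 over pwr-2 at an adjusted p below 0.05. At an unadjusted p below 0.05 it found 12.2%, 14.7% and 3.89% in the same order, and DESeq2 called 1.85%, 2.45% and 0.336% at an adjusted p below 0.05. Per covered bp, edgeR called 0.0120% in hda9-1 over WT, 0.0120% in pwr-2 over WT and 0 between the mutants. Of these regions, 5 lay at least 30% within an acetyltransferase gene. None of the 5 passed in any comparison under any setting tried, with a smallest adjusted p of 0.107 by DESeq2 for HAG1 in pwr-2. The HAF1 region had no WT peak, so it was not among the 5 and its WT reads counted as 0. It was tested only with wider filters. Among regions with a peak in at least 4 libraries its edgeR adjusted p was 0.0693 in hda9-1 and 0.0678 in pwr-2, each over WT. Among all merged regions it was 0.156 and 0.151.

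**Figure D5:**
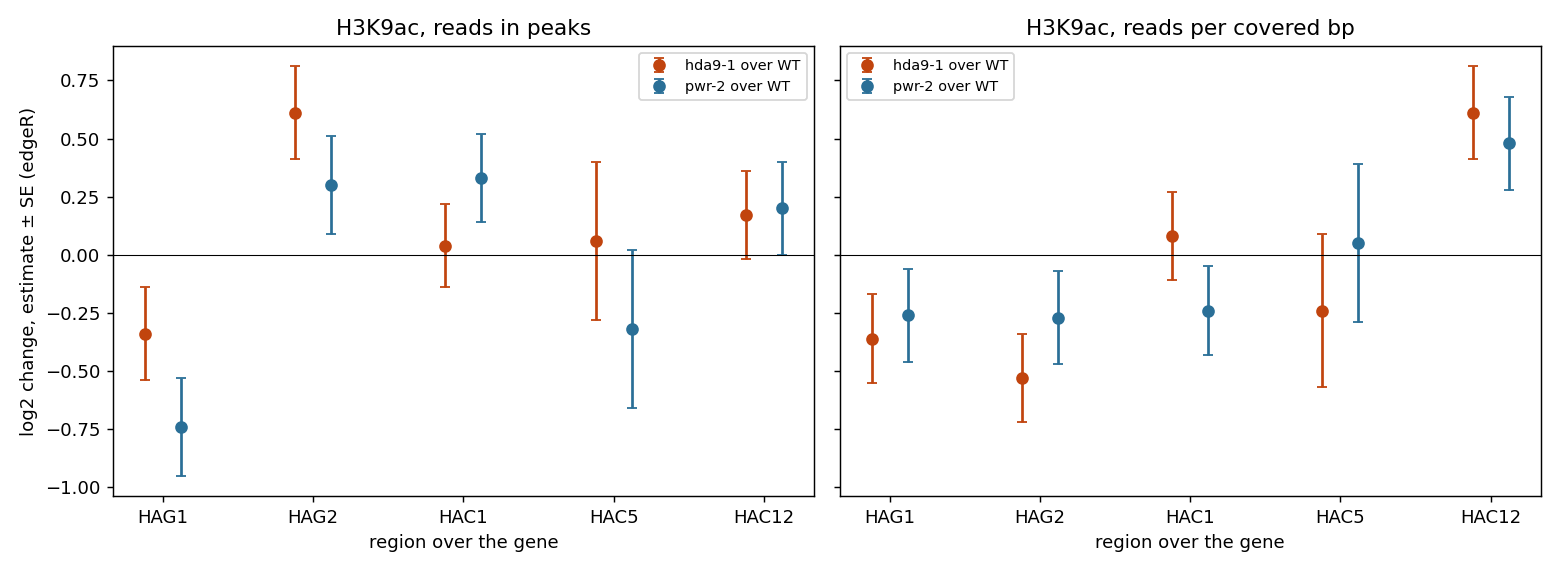
Log2 change of H3K9ac (y axis, edgeR estimate with SE bars) in the 5 regions over acetyltransferase genes, on reads (left) and per covered bp (right), for hda9-1 over WT and pwr-2 over WT. HAG1 lies below 0 and HAC12 above 0 on both scales in both mutants, HAG2 has opposite signs on the 2 scales, and no value passed the adjusted threshold.

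The genes that work beside these enzymes were read in the same way, as 28 annotated genes of the MYST family, SAGA, TFIID, Elongator and the MRG readers of histone methylation. H3K9ac marked 18 of the 28 in all 6 libraries (39.8% of protein-coding genes), including the 4 Elongator genes, 9 of 15 TFIID genes and 3 of 5 SAGA genes. UBP22, a ubiquitin protease of the SAGA module, was marked in none although 800 to 1800 bp of its interior was covered. In H3K14ac, 20 of the 28 were marked in all 3 libraries (33.2% of protein-coding genes). SGF29B, a SAGA subunit that reads methylated H3, was gained in both mutants, with 792 and 792 bp in hda9-1, 592 and 592 in pwr-2, and 0 bp in both WT libraries. TBP2, a TATA-binding protein, was also gained in both, with 800 and 800 bp in hda9-1, 600 and 800 in pwr-2, and 0 bp in both WT libraries. TAF4B, a TFIID subunit, was gained in hda9-1, with 620 and 620 bp in hda9-1, 20 and 620 in pwr-2, and 20 bp in both WT libraries. In all, 3 of the 28 were gained in hda9-1 and 2 in pwr-2, against 4.21% and 2.30% of protein-coding genes, and none was lost, against 0.506% and 0.674%. These genes too had their 0 or 20 bp in the shallower WT libraries, and the part of depth was not tested. Of 3 further loci on the list that carry no name in the annotation and are not counted here, 2 were gained in hda9-1.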

How the data were processed

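The 9 deposited peak lists hold, beside each position, a whole number that was taken as a read count. They lack a header, and this reading rests on the values. Bowtie, SICER and the build TAIR10 are named in the submitters' processing notes, without versions or thresholds. The authors' peaks were called separately in each library and end on steps of 200 bp, and deeper libraries can hold wider and weaker peaks. The 9 input samples were not analysed here.

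Gene positions are those of RefSeq on TAIR10.1. Since the build names differ, printed positions are those of peaks (TAIR10, 1-based). In 45 of 45 combinations of library and chromosome, gene cover was highest with no shift of the peaks. Covered length was compared with two-sided exact permutation tests. Counts of deposited reads were summed over 12753 merged H3K9ac regions, and the 8332 with a peak in all 6 libraries were tested in 1 fit with edgeR 4.0.16 (quasi-likelihood, TMM, Benjamini-Hochberg at 0.05, R 4.3.3). The biological coefficient of variation was 0.184. DESeq2 1.42.0, other size factors, other filters, reads per covered bp, other windows and left-out libraries were alternatives. Both the cover and the region scripts were tested on simulated data. The acetyltransferase genes and the partner and marker lists were chosen with earlier results of these data known. All 10 acetyltransferase genes are named. Partners are named where gained, lost or unmarked in all 6 libraries, and 3 of 31 partner loci carry no name in the annotation and were left out of the counts. Each gained gene was set beside the 3 genes most like it in cover.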

Additional observations from a re-analysis of the deposited data

How the results depend on the processing

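All alternatives but one were listed in the plan. The sum of the 2 hda9-1 libraries into 1 was added after seeing the data, and it called 0 regions. With 75% of the window required, 1 gene (HAC5) was marked in all 6 H3K9ac libraries, 2 were gained in hda9-1 and 2 in pwr-2. Leaving out a library in turn gave 1 to 4 genes gained in hda9-1 and 1 to 2 in pwr-2, the higher values without the second WT library, and 4 to 5 genes marked in all libraries kept. DESeq2 called 154 regions in hda9-1 over WT, 204 in pwr-2 over WT and 28 in hda9-1 over pwr-2, where edgeR called 0, 0 and 0, and the cause was not tested. Per covered bp edgeR called 1 and 1 against WT and 0 between the mutants. Per covered bp the log2 change turned to −0.53 (HAG2, hda9-1), −0.24 (HAC5, hda9-1), −0.27 (HAG2, pwr-2), −0.24 (HAC1, pwr-2) and 0.05 (HAC5, pwr-2). Leaving out a library turned the sign for HAC1 in hda9-1 (−0.07 to 0.15), HAC5 in hda9-1 (−0.38 to 0.72) and HAC5 in pwr-2 (−0.76 to 0.34). For HAC12 it ran over 0 to 0.40 in hda9-1, with 0 without the first WT library, and over 0.02 to 0.42 in pwr-2. No other log2 change turned its sign.

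Replicate numbers are shared across genotypes but no label says that they mark a batch, and the deviations of same-numbered libraries correlated at 0.08 (hda9-1 and WT), 0.172 (pwr-2 and WT) and 0.163 (hda9-1 and pwr-2). With the replicate block edgeR called 0, 0 and 0 regions, with 1121, 1348 and 446 at an unadjusted p below 0.05. Whether the depth of the WT libraries limited which peaks were called there was not tested, and H3K14ac rests on 1 library per genotype.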
